A study of Homo sapiens with 6 samples.

Results

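The mevalonate arm of sterol synthesis was examined in HepG2 cells, a human line derived from a hepatocellular carcinoma, after siRNA against DGUOK. Its members were the 9 genes ACAT2, HMGCS1, MVK, PMVK, MVD, IDI1, FDPS, FDFT1 and SQLE, chosen by the step of the pathway that each enzyme catalyzes, out of 34036 genes in the count table. RNA was sequenced from 3 control libraries (siCON, a non-targeting siRNA) and 3 knockdown libraries (siDGk, an siRNA pool against DGUOK, the mitochondrial deoxyguanosine kinase), all harvested 48 h after lipid-based transfection. The groups rest on the sample titles, since the treatment label names the control siRNA for all 6 libraries. Total counts were 19065684, 18915508 and 10527216 in siCON replicates 1, 2 and 3 and 18613138, 15978314 and 21334876 in siDGk replicates 1, 2 and 3. The labels do not say whether replicates came from separate transfections, so p-values measure the spread between these libraries, which may be technical.

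The mevalonate pathway builds isoprenoid units from acetyl-CoA. Thiolase and HMG-CoA synthase act at its entry, a pair of kinases and a decarboxylase turn mevalonate into isopentenyl diphosphate, and prenyl transferases join these units into farnesyl diphosphate, the branch point to prenylated proteins, dolichol, ubiquinone and squalene. In liver cells the genes are known targets of SREBP-2, a membrane-bound transcription factor released when sterols in the endoplasmic reticulum are low. SQLE is known as a rate-controlling step whose protein is degraded when sterols are high.

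The targeted gene was compared first. DGUOK stood at 54.4, 53.1 and 48.2 CPM (counts scaled to a common library size with TMM factors) in the siCON libraries, and at 9.08, 10.5 and 6.72 CPM in the siDGk libraries, in the order of replicates 1, 2 and 3. Each siDGk library lay below each siCON library, as the titles have it. Of 14476 genes that passed the count filter, 2041 (14.1%) were called in edgeR's quasi-likelihood test, 967 lower (6.68%) and 1074 higher (7.42%). A call needed an adjusted p (Benjamini-Hochberg over all genes tested) under 0.05 and a log2 fold change beyond 0.5 in size. The median log2 fold change of all genes tested was 0.02.

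All 9 members passed the count filter. Their fitted log2 differences, siDGk minus siCON, were negative throughout, and the median was −0.61. ACAT2, HMGCS1, MVK, MVD and FDPS, 5 of the 9, were called lower, against 6.68% of all genes tested. The adjusted p alone was under 0.05 with a lower level for 8 of the 9, against 9.35% of all genes. In 8 of the 9 every siDGk library lay below every siCON library, against 17.3% of all genes. PMVK was the member whose groups overlapped. IDI1, FDFT1 and SQLE passed the adjusted p and missed the fold change threshold. Library preparation captured bulk RNA, in which fewer cells expressing a gene and less RNA per cell cannot be told apart.

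**Figure D1:**
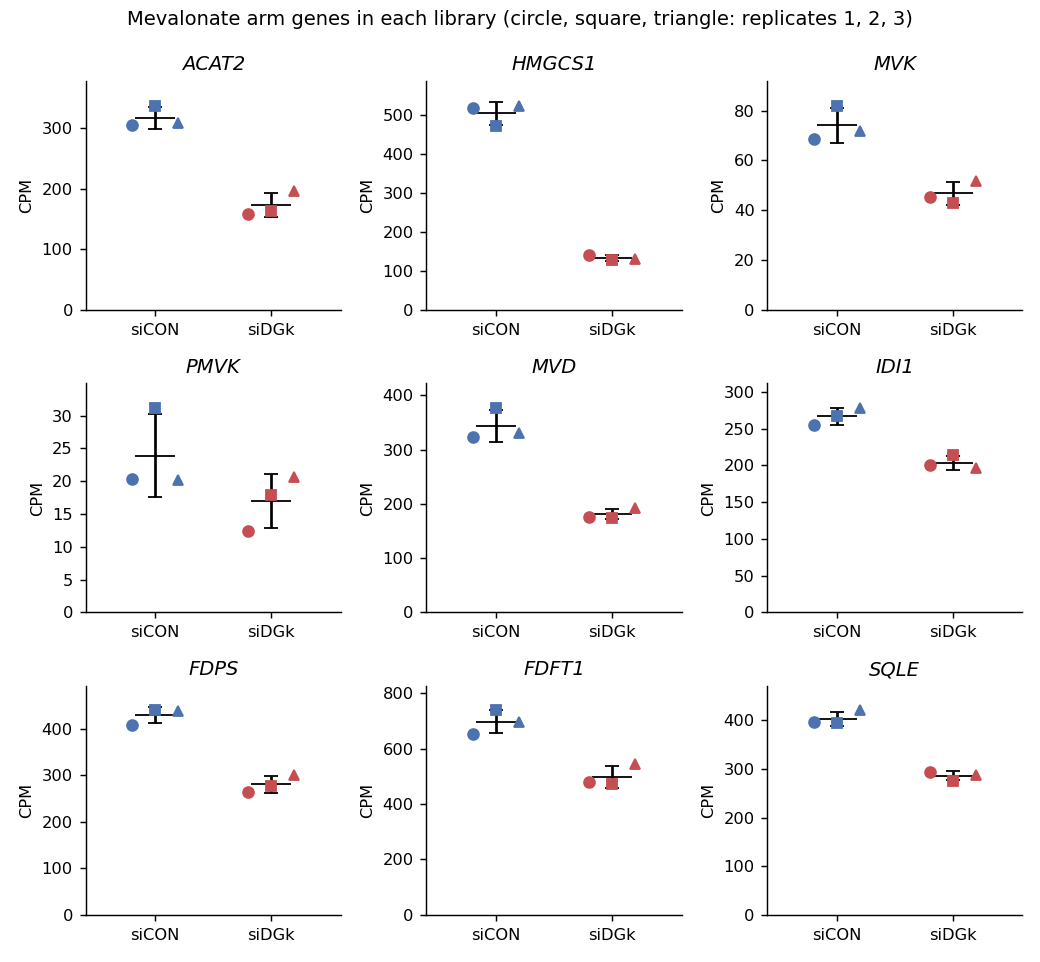
CPM of each of the 9 genes in the 3 siCON (blue) and 3 siDGk (red) libraries, with a horizontal bar for the mean and whiskers for 1 SD (n = 3); every vertical axis starts at 0. The groups are apart in every panel except that of PMVK, where siDGk replicate 3 reaches the siCON values.

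At the entry to the pathway, HMGCS1 (ENSG00000112972.14), the cytosolic HMG-CoA synthase, had the largest difference of the 9. Its level was 518, 470 and 523 CPM in siCON and 141, 129 and 129 CPM in the siDGk libraries. The siDGk libraries were close to each other and far below the lowest siCON library, and their mean was 26.4% of the siCON mean. On the log2 scale the fitted fold change was −1.92 (SE, the standard error, 0.08, 95% confidence interval −2.09 to −1.75, edgeR adjusted p = 1.21e-11), and 203 of the 14476 genes had a lower one. ACAT2 (ENSG00000120437.8), the cytosolic acetoacetyl-CoA thiolase that joins a pair of acetyl-CoA molecules, stood at 304, 337 and 308 CPM in the siCON libraries and at 158, 164 and 196 CPM in the siDGk libraries. The siDGk libraries again lay below all siCON libraries, at 54.6% of their mean. Its log2 difference was −0.87 (SE 0.09, edgeR adjusted p = 1.26e-06). HMGCS1 lies on chromosome 5 of GRCh38 from 43287470 to 43313512 (minus strand), and ACAT2 on chromosome 6 from 159762045 to 159779112 (plus strand).

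The next members in pathway order are the kinases MVK and PMVK, which phosphorylate mevalonate, and MVD, which then removes a carboxyl group. MVK (ENSG00000110921.13; chromosome 12 from 109573255 to 109598125, plus strand) stood at 68.5, 82.0 and 71.9 CPM in the siCON libraries and at 45.3, 43.1 and 51.9 CPM in the siDGk libraries. The groups did not overlap, and the log2 difference was −0.66 (SE 0.13, edgeR adjusted p = 8.47e-04). PMVK (ENSG00000163344.5; chromosome 1 from 154924740 to 154936719, minus strand), the phosphomevalonate kinase, stood at 20.4, 31.2 and 20.2 CPM in the siCON libraries and at 12.4, 18.0 and 20.6 CPM in the siDGk libraries. The level in siCON replicate 2 was above those of the other control libraries, and siDGk replicate 3 lay within the siCON range. PMVK was not called: its log2 difference was −0.50 (SE 0.23, 95% confidence interval −0.98 to −0.01, edgeR adjusted p = 0.157). This interval holds the MVK value and nearly reaches 0. The PMVK value moved with single libraries, to −0.26 (edgeR adjusted p = 0.569) without siCON replicate 2, −0.33 without siDGk replicate 1 and −0.67 without siDGk replicate 3, and it was called in none of these. MVD (ENSG00000167508.11; chromosome 16 from 88651935 to 88663161, minus strand), the decarboxylase that yields isopentenyl diphosphate, stood at 323, 377 and 330 CPM in the siCON libraries and at 176, 175 and 193 CPM in the siDGk libraries. The siDGk mean was 52.8% of the siCON mean, with no overlap and a log2 difference of −0.92 (SE 0.08, edgeR adjusted p = 2.66e-07).

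Isopentenyl diphosphate is isomerized by IDI1 and condensed to farnesyl diphosphate by FDPS. IDI1 (ENSG00000067064.10; chromosome 10 from 1039152 to 1049119, minus strand) had the smallest difference of the 9 in the reported fit. PMVK had a smaller one without siCON replicate 2, without siDGk replicate 1 and with DESeq2's shrunken fold changes. The level of IDI1 went from 255, 267 and 278 CPM in siCON replicates 1, 2 and 3 to 200.4, 214 and 196 CPM in the siDGk libraries. Its groups were apart, but its log2 difference of −0.39 (SE 0.08, 95% confidence interval −0.56 to −0.22, edgeR adjusted p = 0.00155) was under the threshold in size, so it was not called. FDPS (ENSG00000160752.14; chromosome 1 from 155308748 to 155320666, plus strand) stood at 409, 439 and 439 CPM in the siCON libraries and at 264, 276 and 301 CPM in the siDGk libraries. It was called, at 65.4% of the siCON mean and a log2 difference of −0.61 (SE 0.08, edgeR adjusted p = 1.35e-05).

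The last enzymes commit farnesyl diphosphate to sterols. FDFT1 (ENSG00000079459.12), squalene synthase, stood at 654, 738 and 697 CPM in the siCON libraries and at 480.1, 472 and 544 CPM in the siDGk libraries. SQLE (ENSG00000104549.11), the monooxygenase that makes squalene epoxide, stood at 397, 394 and 420.5 CPM in the siCON libraries and at 294, 276 and 287 CPM in the siDGk libraries. For both genes every siDGk library was below every siCON library, with siDGk means at 71.6% and 70.8% of the siCON means. Both passed the adjusted p and lay just short of the fold change threshold. FDFT1 had a log2 difference of −0.481 (SE 0.08, edgeR adjusted p = 1.84e-04) and SQLE one of −0.498 (SE 0.07, edgeR adjusted p = 7.30e-05). The SQLE call turned on the setting, including how library sizes were set. Among 4 orders of count filter, library totals and TMM factors, it was called in 1, the order of filter, totals recomputed over the filtered genes and then TMM, at −0.508, and not in the other order with recomputed totals, at −0.487; the order used here was settled after all 4 had been seen. SQLE was called in 10 of the 20 settings run, FDFT1 in 3 and PMVK in 0. Leaving out siCON replicate 1 gave calls for FDFT1 at −0.523 and SQLE at −0.509, as did leaving out siDGk replicate 3, at −0.556 and −0.509. SQLE was also called without siCON replicate 2, at −0.515, and without siDGk replicate 1, at −0.537.

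**Figure D2:**
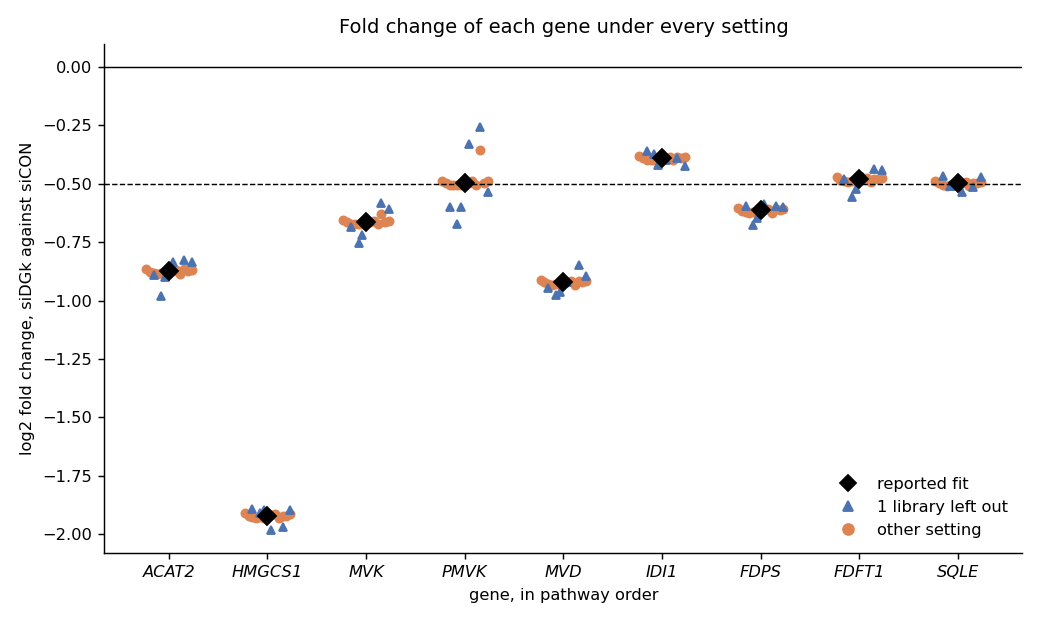
Log2 fold change of each member, in pathway order, in the reported fit (diamond), with 1 library left out (triangles) and under the other settings (circles), 20 settings in all; the dashed line is the threshold of −0.5. All values are negative. Those of PMVK, SQLE and FDFT1 fall on both sides of the dashed line, and PMVK has the widest range, −0.67 to −0.26.

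**Figure D3:**
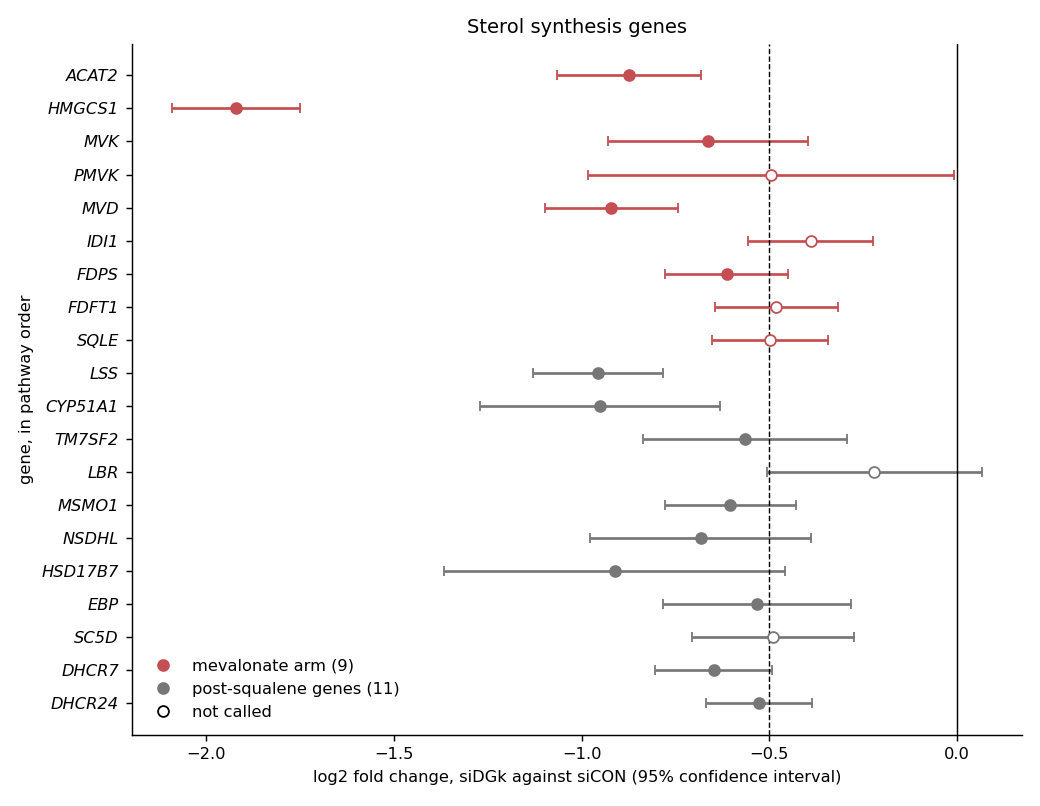
Log2 fold change of siDGk against siCON with its 95% confidence interval for the 9 mevalonate arm genes (red) and 11 post-squalene genes (grey), in pathway order; filled points were called lower and the dashed line is the fold change threshold of −0.5. HMGCS1, at −1.92, lies apart from the rest, and the intervals of MVK, PMVK, IDI1, FDPS, FDFT1 and SQLE span the dashed line.

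The members differed among themselves mainly through HMGCS1. Its 95% confidence interval ended at −1.75, while the interval of MVD, the next in size, began at −1.10. Ratios within a library restate these fold changes and are no further support, since HMGCS1 was taken as the member with the largest difference; they are given to show the values by library. On the log2 CPM scale the ratio of FDFT1 to HMGCS1 was 0.34, 0.65 and 0.41 in siCON and 1.77, 1.88 and 2.07 in siDGk replicates 1, 2 and 3, and that of MVD to HMGCS1 was −0.68, −0.32 and −0.66 in siCON and 0.33, 0.44 and 0.57 in siDGk. For each of the other 8 members the ratio to HMGCS1 was higher in all siDGk than in all siCON libraries, by 1.00 for MVD at the least and 1.53 for IDI1 at the most. Among those 8 the fold changes ran from −0.92 for MVD to −0.39 for IDI1. The intervals of neighbors in that order overlapped, while those of MVD and ACAT2 did not overlap those of SQLE, FDFT1 and IDI1.

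Levels were compared between genes as TPM, counts divided by exon length and scaled to a common total. In siCON cells FDFT1 was highest at 499 ± 31.5 TPM (SD, n = 3), then ACAT2 at 437 ± 23.8, FDPS at 420.3 ± 20.9, SQLE at 342 ± 17.0, HMGCS1 at 277 ± 18.0, MVD at 265 ± 21.8, IDI1 at 226 ± 12.7, PMVK at 86.9 ± 22.3 and MVK at 29.9 ± 2.80 TPM. ACAT2 and FDPS overlapped between libraries, as did HMGCS1 and MVD. Of the exon bases 37.7% in HMGCS1, 22.2% in ACAT2, 18.6% in FDPS, 14.97% in IDI1 and 4.27% in FDFT1 are shared with other genes, where reads can be lost, and the order was not tested against that. Of the summed TPM of the 9 genes, HMGCS1 made up 11.5%, 9.64% and 11.1% in siCON and 5.10%, 4.60% and 4.23% in siDGk replicates 1, 2 and 3. The share of FDFT1 was 19.3% ± 0.398 in siCON and 22.6% ± 0.604 in siDGk (SD, n = 3).

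The summed TPM of the 9 genes was 2453, 2665 and 2631 in siCON and 1089, 1502 and 1679 in siDGk replicates 1, 2 and 3. The groups did not overlap, and the difference in log2 was −0.88 (exact permutation test, two-sided p = 0.1, the smallest that 3 against 3 libraries can give). The value of siDGk replicate 1 moved with short genes. Genes under 200 exon bases took 27.5% of all TPM in that library and between 0.387% and 0.758% in the other 5. Most of it came from TRDJ2, TRDJ1 and TRDJ4, joining segments of the T cell receptor delta locus that were named after their values were seen. TRDJ2, 54 bases long, had 58437 counts in siDGk replicate 1 against 91 in replicate 2 of the group and 0 elsewhere. With genes of 200 or more exon bases alone, an alternative chosen after seeing the data, the sum was 2463, 2677 and 2641 TPM in siCON and 1502, 1514 and 1687 TPM in siDGk, a log2 difference of −0.73 (exact permutation test, two-sided p = 0.1). The summed CPM gave −0.75, and the TPM sum without siDGk replicate 1 gave −0.70.

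**Figure D4:**
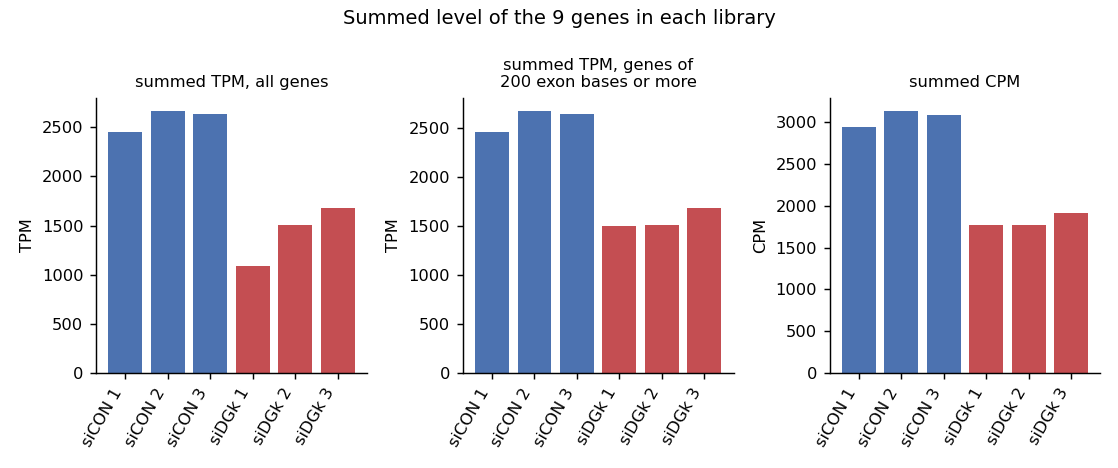
Summed level of the 9 genes in each siCON (blue) and siDGk (red) library, as TPM over all genes, TPM over genes of 200 or more exon bases, and CPM; axes start at 0. With all genes siDGk replicate 1 is lowest at 1089 TPM, and without the short genes it is 1502 TPM, next to the 1514 TPM of siDGk replicate 2.

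The first step has a mitochondrial counterpart, ACAT1, for thiolysis of acetoacetyl-CoA. The ratio of ACAT2 to ACAT1 in TPM was 9.61, 11.8 and 8.61 in siCON and 6.43, 7.65 and 8.12 in siDGk replicates 1, 2 and 3. Its size rests on exon lengths of 2639 and 5869 bases, which cancel when the groups are compared. The ratio was lower in every siDGk library, by 0.43 on average on the log2 scale (a difference of −0.43, exact permutation test, two-sided p = 0.1). ACAT1 itself was lower too, without overlap and short of the fold change threshold (log2 fold change −0.45, edgeR adjusted p = 0.0156). BDH1, a ketone body dehydrogenase, and HADHB, a subunit of the trifunctional protein of fatty acid oxidation, 2 of the 4 tested genes of the list of mitochondrial counterparts and ketogenesis, were called lower, at −2.19 and −0.66. Of all genes tested 6.68% were called lower. All 4 genes of the list were lower with an adjusted p under 0.05 and no overlap, against 9.35% and 17.3% of all genes. Without siCON replicate 2 or siDGk replicate 1, 3 genes of that list were called.

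Past squalene epoxide, 9 of 11 genes that turn it into cholesterol were called lower, against 6.68% of all genes tested, with a median of −0.60. LSS, the lanosterol synthase, had −0.96, CYP51A1, the lanosterol demethylase, −0.95, HSD17B7 −0.91 and NSDHL −0.68. SC5D missed the fold change threshold at −0.49, and LBR was at −0.22 (edgeR adjusted p = 0.307). The median of these genes was close to that of the mevalonate arm, −0.61.

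Genes that feed or branch from the arm were counted next, beside the 6.68% of all genes tested that were called lower. Of 6 genes of acetyl-CoA supply 2 were called lower, ACSS2, a cytosolic acetyl-CoA synthetase, at −0.98 and ACSS1, its mitochondrial relative, at −0.75. The ACSS1 call had an adjusted p of 0.0454 from edgeR's test, and 1 gene of the list was called without siCON replicate 1, 2 or 3 or siDGk replicate 2, with replicate number as a block, with no count filter and in both DESeq2 settings. ACLY, which splits citrate, had −0.29 and was not called. Of 17 tested genes of the isoprenoid branches (prenyltransferases, dolichol and ubiquinone synthesis) 0 were called in edgeR's test, and the list's median was −0.02. With 6.68% of all genes called lower, a count of 0 in 17 genes lies near that share. The SEs of these genes ran from 0.12 to 0.37, so a difference of threshold size was not detectable in those with the fewest counts, such as FNTB at −0.51 (SE 0.37, edgeR adjusted p = 0.404). ICMT, a methyltransferase of prenylated proteins, passed the adjusted p (edgeR adjusted p = 0.0207) but not the fold change threshold, at −0.44. The list gained 1 call without siCON replicate 3 or siDGk replicate 1.

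Among 11 genes of SREBP control and sterol uptake 2 were called lower, against 6.68% of all genes tested, a share that also applies to the lists that follow. SCAP, the escort of SREBP, had −0.64 and MBTPS2, a protease that releases it, −0.52; 1 gene of the list was called without siCON replicate 1, 2 or 3 or siDGk replicate 1 or 3, and with DESeq2's shrunken fold changes. SREBF2, which encodes SREBP-2, had −0.26 (edgeR adjusted p = 0.0211), short of the fold change threshold. Higher in siDGk, and also short of it, were NPC1, which exports cholesterol from lysosomes, at 0.48 (edgeR adjusted p = 6.08e-04) and INSIG2, a relative of INSIG1, at 0.32 (edgeR adjusted p = 0.0198), both without overlap. INSIG1, which retains SCAP, had under 3 CPM in every library, so its −0.01 (standard error 1.20) carries little. Why its counts were this low was not tested. Of 9 tested fatty acid targets of SREBP-1, 7 were called lower, led by GPAM at −1.23, PNPLA3 at −1.06, FADS2 at −0.95 and FASN, the fatty acid synthase, at −0.75. Of 10 tested genes of the list of LXR targets and efflux, 3 were called lower, SOAT2 at −0.68, ABCA1 at −0.58 and LPCAT3 at −0.52, and 1 without siCON replicate 2. That list also holds the receptors NR1H3 and NR1H2 and the cholesterol acyltransferases SOAT1 and SOAT2, which are not efflux genes. None of 8 genes for turnover of sterol synthesis enzymes was called in edgeR's test, a count near the 6.68% of all genes called lower. Their median was −0.05, and UBE2G2 at 0.46 and AUP1 at 0.27 passed the adjusted p alone.

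**Figure D5:**
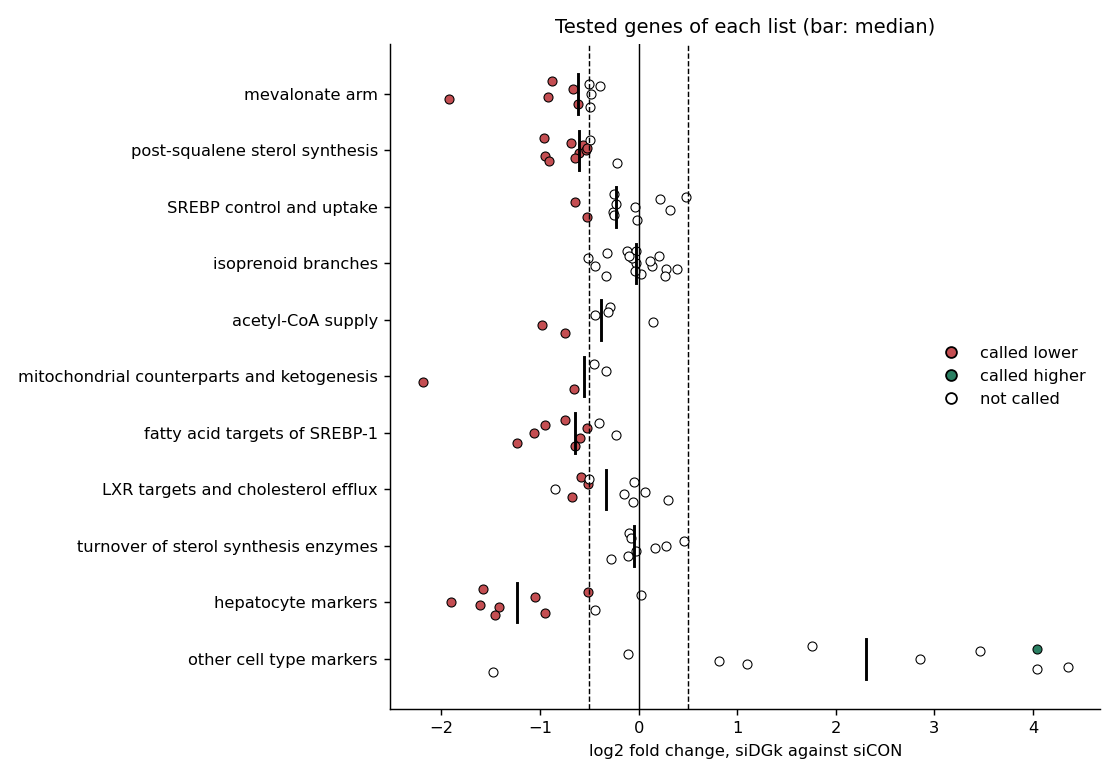
Log2 fold change of each tested gene in the 11 lists, with a vertical bar at each list's median; red points were called lower, green higher and white not called, and dashed lines mark the thresholds of −0.5 and 0.5. The medians of the mevalonate arm, −0.61, and of the post-squalene genes, −0.60, lie close together, and that of the isoprenoid branches, −0.02, lies near 0.

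Markers of liver and of other cell types were compared as well, beside the 6.68% of all genes tested that were called lower and the 7.42% called higher. Of 10 hepatocyte markers 8 were called lower, led by FGB at −1.90, TTR at −1.61, ALB, their most abundant gene in siCON, at −1.58 and APOB at −1.46, while SERPINA1 had 0.02. Their summed level was 52936, 47177 and 46188 CPM in siCON and 27465, 23968 and 22542 CPM in the siDGk libraries. Of 12 markers of leukocytes, endothelium and fibroblasts 10 were tested and 1, the collagen gene COL1A1, was called higher, from 0.481, 1.97 and 1.05 CPM to 20.2, 20.7 and 17.4 CPM. Their summed level was 6.84, 10.5 and 8.10 CPM in siCON and 38.4, 102.5 and 27.1 CPM in siDGk; DCN and LUM were at 0 in all siCON libraries and in siDGk replicate 3. In siDGk replicate 2 the most abundant was VWF, at 31.4 CPM. The part of these differences in the values of the mevalonate arm was not tested. The mean log2 CPM profile of the 9 members, less its siCON mean, was −0.83, −0.79 and −0.66 in siDGk replicates 1, 2 and 3.

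The start sites of the members were read from RefSeq. Windows of 250 bases before to 50 after the start (GRCh38.p14) were searched for 6 of the 9 members. These were 9 windows in all, each identical to the genome at its coordinates. FDFT1 and SQLE were left out of this search by their chromosome, while the share over all windows was not limited in that way. No window was found for ACAT2. The letters searched on both strands were TCACNCCAC, a sterol regulatory element, CCAAT, the box bound by NF-Y, and GGGCGG, the GC box bound by Sp1. CCAAT was in 6 of the 9 windows (5 of the 6 members) and in 34.6% of all 35116 windows, and GGGCGG in 9 of the 9 windows and in 45.0% of all. TCACNCCAC was in 0 of the 9 windows and 1.13% of all, which says only that these letters are absent from these windows. A match is a description and not a binding site. Windows of the called members HMGCS1 (chr5:43313363-43313662, minus strand, the upstream one of 2), MVK (chr12:109573544-109573843, plus strand), MVD (chr16:88663042-88663341, minus strand) and FDPS (chr1:155308616-155308915, plus strand) are shown 5′ to 3′ on the gene's strand, with CCAAT and GGGCGG or their reverse complements in capitals, so that their number and spacing can be compared.
HMGCS1: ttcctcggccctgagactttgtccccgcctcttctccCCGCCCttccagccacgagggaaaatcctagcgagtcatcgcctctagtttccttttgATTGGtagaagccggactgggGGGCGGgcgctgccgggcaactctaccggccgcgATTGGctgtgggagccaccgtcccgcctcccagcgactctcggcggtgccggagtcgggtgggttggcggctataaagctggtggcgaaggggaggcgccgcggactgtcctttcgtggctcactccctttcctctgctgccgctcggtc
MVK: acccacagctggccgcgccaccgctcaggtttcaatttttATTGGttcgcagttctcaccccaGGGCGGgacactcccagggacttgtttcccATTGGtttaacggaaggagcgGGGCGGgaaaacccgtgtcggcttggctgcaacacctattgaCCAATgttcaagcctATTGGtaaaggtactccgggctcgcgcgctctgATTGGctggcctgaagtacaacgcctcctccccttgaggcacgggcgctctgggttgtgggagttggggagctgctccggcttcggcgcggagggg
MVD: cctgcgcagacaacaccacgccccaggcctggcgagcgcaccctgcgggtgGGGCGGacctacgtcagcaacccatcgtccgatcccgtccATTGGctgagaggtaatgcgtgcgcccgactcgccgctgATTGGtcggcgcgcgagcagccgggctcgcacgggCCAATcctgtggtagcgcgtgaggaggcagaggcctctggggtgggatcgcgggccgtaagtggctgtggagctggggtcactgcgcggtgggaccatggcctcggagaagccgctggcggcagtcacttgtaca
FDPS: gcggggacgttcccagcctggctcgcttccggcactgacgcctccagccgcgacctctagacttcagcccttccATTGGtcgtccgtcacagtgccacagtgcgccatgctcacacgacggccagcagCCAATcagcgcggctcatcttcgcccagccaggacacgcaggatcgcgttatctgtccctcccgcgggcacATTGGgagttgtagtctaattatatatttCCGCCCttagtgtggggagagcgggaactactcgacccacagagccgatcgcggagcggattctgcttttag
The CCAAT letters lay at 2 places in the HMGCS1 window, at −155 and −100 from the start, at 5 in that of MVK, 3 in that of MVD and 3 in that of FDPS.

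Genes beside the members were compared because the counting ignored strand, so that reads of overlapping genes can be lost or misplaced. MMAB, a cobalamin adenosyltransferase gene that starts 325 bases from MVK on the opposite strand and overlaps it, had a log2 difference of −1.13 (SE 0.15, edgeR adjusted p = 2.56e-05). It overlaps 2.50% of the exon bases of MVK. Of the exon bases of ACAT2, 22.2% are shared with other genes; TCP1, a chaperonin subunit, had −0.22 (edgeR adjusted p = 0.0549) and SOD2, the mitochondrial superoxide dismutase, −0.49 (edgeR adjusted p = 4.23e-04), neither called. The gene that shares 37.7% of the exon bases of HMGCS1 had 0 counts in every library. WDR37, which starts 419 bases from IDI1, had 0.12, and SNAI3-AS1, a noncoding gene 137 bases from the start of MVD with 41 to 147 counts per library, had −1.06 (edgeR adjusted p = 0.145). RUSC1-AS1, which overlaps FDPS, had 0 to 42 counts per library, and the other noncoding genes beside members that the table holds had at most 17. Of 3 annotated pseudogenes named after IDI1 the count table held 1, and of 8 named after FDPS it held 4. Those held had at most 2 counts in any library. Whether reads of the members were lost to pseudogenes was not tested.

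Other genes had nearly the same profile over the 6 libraries as the mean of the 9 members. Among 9217 genes whose mean was 10 CPM or more, the nearest by root mean square difference in log2 CPM were CALR (0.057), MAT1A (0.058), NPC2 (0.062), LRRC1 (0.064) and ALDH1B1 (0.065). CALR, the calreticulin gene, fell from 1852, 2066 and 2022 CPM to 1159, 1226 and 1292 CPM in replicates 1, 2 and 3, a log2 fold change of −0.69. NPC2, which carries cholesterol in lysosomes, had −0.74. By the same measure ACAT2 and MVK, at 0.094 and 0.088, were the members nearest to their own mean, and HMGCS1, at 0.83, the farthest.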

How the data were processed

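Counts per gene were deposited by the authors as whole numbers without normalization. STAR 2.6.1 had placed the reads on GRCh38, and featureCounts 1.6.5 had counted them per Gencode 27 gene with a quality cutoff of 10 and otherwise at its defaults, which ignore strand. Here counts were filtered with filterByExpr (minimum count 10), TMM-normalized on whole library totals and compared with the robust quasi-likelihood test of edgeR 4.0.16 in R 4.3.3. The order of filter, library totals and TMM was not in the plan. It was settled after seeing the data: 4 orders were run, the one used matched the numbers called in an earlier analysis of these counts, and the other 3 are given as alternatives. TPM used Gencode 44 exon lengths, merged over the transcripts of each gene and held by 98.9% of genes with a count. Single values per library were compared by exact permutation. Totals ran from 10527216 to 21334876 counts. Within each group, every pair of replicates differed beyond counting error, with chi-square values of 10.9 to 27.2 per degree of freedom. The fit was tested on simulated counts; the first pass bound was missed, the bounds were then reset more than once after seeing the results, and nearly all misses lay at low counts. The members and lists were chosen with earlier results of these data known. Named genes were the members, DGUOK, up to 4 called genes per list with examples not called, neighbors of the members and the 5 nearest profiles. Also named, after their values were seen, were TRDJ2, TRDJ1 and TRDJ4. Some planned genes of the lists and a planned ratio are not reported here, and the lists were counted without those genes.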

Additional observations from a re-analysis of the deposited data

How the results depend on the processing

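Beside the reported fit, 19 settings were run for the genes called and the 9 members, of which 3, the other orders of filter, library totals and TMM, were chosen after seeing the data, as was TPM over longer genes. All 9 members kept a negative log2 fold change in every setting, and 8 had an adjusted p under 0.05 in each. With the adjusted p alone 8 members were called lower, and with a log2 fold change above 1 the calls were 819 genes and 1 member, HMGCS1, which follows from the thresholds. With 1 library left out, the genes called ran from 1704 to 1935, the members called from 5 to 7, the members' median from −0.68 to −0.58, the log2 difference of summed TPM from −1.01 to −0.70 and that of ACAT2 to ACAT1 from −0.53 to −0.30. The other orders gave 2032, 2050 and 2051 genes called and 6, 5 and 5 members. SQLE, at −0.498, and FDFT1, at −0.481, lay near the threshold, and SQLE was also called with DESeq2's unshrunken fold changes, RLE factors, a mean CPM above 10 and mitochondrially encoded genes left out, at −0.51 in each; the cause was not tested. Over all 24670 genes with a count the median of all genes was 0.13 with DESeq2's unshrunken fold changes, 0.01 with its shrunken ones and 0.14 with no filter, against 0.02 in the reported fit. With replicate number as a replicate block 2077 genes and 5 members were called; same-numbered libraries correlated at 0.024, 0.017 and −0.0022, so the numbers did not pair them. PMVK had the fewest counts of the members, 212 to 585 per library.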
